A study of Mus musculus with 8 samples.

Results

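The m6A writer complex is described here through the RNA of its 8 subunit genes in mouse embryonic stem (mES) cells. The genes are Mettl3, Mettl14, Wtap, Virma, Zc3h13, Rbm15, Rbm15b and Cbll1. They were chosen by known role and picked by name from the 17597 genes of one table of total RNA-seq. All 8 have a row, and Virma is listed there under its older name 1110037F02Rik. The table gives 1 mean count per gene over 8 libraries of which 4 came from cells given dTAG-13 for 26 h and 4 from untreated cells, each group with clones C3 and H5 and 2 replicates per clone. All cells carry METTL3 fused at its C terminus to FKBP12 F36V, a degron that dTAG-13 directs to destruction, in a Cast x 129S background with a TetOn promoter in place of the endogenous Xist promoter. None received doxycycline, so the Xist allele was not induced in either group. This RNA-seq experiment asked which transcripts respond directly to the loss of METTL3. The mean pools treated and untreated cells, so it has no replicate error, it cannot be split by group or clone, and no test was run on it. Whether any subunit differed with dTAG-13 was not analysed here.

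m6A, N6-methyladenosine, is the most common internal modification of mRNA and is written co-transcriptionally by a large protein complex. METTL3 carries the catalytic site and binds the methyl donor, while METTL14, a related protein without activity of its own, holds the RNA substrate. WTAP binds this pair and places it in nuclear speckles. VIRMA and ZC3H13 are large scaffold proteins that tie WTAP to the rest of the complex, RBM15 and RBM15B are related RNA-binding proteins that bring the complex to selected transcripts, and CBLL1 (also called HAKAI) is a RING finger protein that helps to keep the regulatory part together. In mES cells, m6A marks many pluripotency transcripts for decay. RBM15 and WTAP have also been linked to Xist RNA.

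The difference between both METTL proteins can be seen in their coding sequence, and it is shown because the degron removes the catalytic subunit. The Mettl3 stretch lies in exon 6 of 11 of its principal transcript, at chr14:52297557-52297616 on the minus strand of GRCm38, the build of mm10. Its capitals mark codons 395 to 398 of 580, which encode the catalytic motif that contacts the methyl donor. The Mettl14 stretch lies in exon 7 of 11, at chr3:123374781-123374840 on the minus strand, and its capitals mark codons 192 to 195 of 456, at the place that corresponds to that motif. Both were read from the GENCODE M21 transcripts and run 5′ to 3′ on the coding strand, counting codons from the start codon.

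Mettl3: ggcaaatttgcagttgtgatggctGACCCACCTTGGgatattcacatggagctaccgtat

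Mettl14: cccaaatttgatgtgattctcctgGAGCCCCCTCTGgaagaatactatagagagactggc

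In these cells the degron follows the last codon of Mettl3, in exon 11. The final bases of the reading frame are at chr14:52294982-52295011 on the minus strand, with the stop codon in capitals. The letters are those of the reference strain and hold no tag.

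Mettl3 end: ggcatcatctctaaacctaagaatttaTAG

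The subunits were not represented evenly. Wtap held 37.8% of the reads of the 8 genes, more than any other subunit, and Cbll1 held 2.48%. As the authors' mean over all libraries, in size-factor-normalized reads, the mean count was 4824 for Wtap and 316 for Cbll1, a ratio of 15.3. Virma had a mean count of 2162, Rbm15 of 1607, Zc3h13 of 1429 and Rbm15b of 1009. Both genes of the catalytic pair came near the bottom of this order, with a mean count of 717 for Mettl14 and 684 for Mettl3. A mean count grows with transcript length, so it does not by itself rank genes by number of molecules.

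To set genes beside each other, each mean count was divided by the length in kb of all annotated exons of the gene and scaled so that all genes add up to 1000000. This quantity is called the level per kb. The exons are those of GENCODE M21, whereas the paper took its gene annotation from the UCSC genome browser. A length can therefore include bases in which the authors counted no reads. Among the 13447 genes with a known length and 10 or more reads in the mean count, the typical (median) level per kb was 19.2, and 7 of the 8 subunits lay above it. The median over the subunits was 43.8. On mean counts, likewise, 7 of 8 were above the median gene, which had a mean count of 376. Cbll1 lay below the median gene on both scales. The tally depends on the genes compared and the length: it was 8 of 8 with no minimum on the mean count, 6 with the longest transcripts, where Mettl14 also fell below, and 5 at a minimum of 100, where Mettl3, Mettl14 and Cbll1 were below.

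Mettl3 (ENSMUSG00000022160.18, chromosome 14, 52294841 to 52305128) had a level per kb of 31.8, above that of 61.6% of genes (47.6% at a minimum mean count of 100). Mettl14 (ENSMUSG00000028114.16, chromosome 3, 123368297 to 123386108) had a level per kb of 22.8, above 54.0% of genes, but above 48.1% with the longest transcripts and 37.3% at a minimum mean count of 100. The proteins of this pair bind each other. The ratio of Mettl14 to Mettl3 RNA was 0.716 per kb and 1.05 in mean count. That ratio depends on the length used. It was 0.774 with the principal coding transcript of each gene and 0.195 with the median coding transcript. The 648 bases that the latter gives Mettl3 are fewer than the 1740 coding bases of its principal transcript, so they cannot hold the full reading frame. With the longest transcript the ratio was 0.314, where Mettl14 is given 7197 bases in place of the 2741 of its principal one. For Mettl3, the exons of all its annotated transcripts cover 5076 bases, against 2025 in the principal transcript, and its level per kb rose to 52.2 with the latter.

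Wtap (ENSMUSG00000060475.13, chromosome 17, 12966796 to 12994169) had a level per kb of 182, above that of 91.8% of genes. It was 5.73 times the level of Mettl3 and 7.99 times that of Mettl14. With the other lengths the ratio to Mettl3 ran from 3.48 to 6.93, and that to Mettl14 from 8.96 to 17.8. The 3.48 used the median coding transcript, which for Mettl3 is shorter than its full coding part. Wtap stayed the highest of the 8 subunits with each of the 4 lengths tried and on mean counts. Its distance to the next subunit in the main order, Virma, was 2.55-fold with all exons, 4.60-fold with the longest transcripts, 7.05-fold with principal transcripts and 11.1-fold with the median coding transcript.

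The scaffold genes came next with all exons as the length. Virma (ENSMUSG00000040720.15, chromosome 4, 11485958 to 11550684) had a level per kb of 71.5, above 78.9% of genes. Zc3h13 (ENSMUSG00000022000.11, chromosome 14, 75284373 to 75344426) had a level per kb of 53.7, above 73.0% of genes. Virma was 1.33 times Zc3h13 per kb and 1.51 times in mean count. Zc3h13 was above Mettl14 with all exons, but below it with principal transcripts (35.9 against 40.4). The place of Virma against Mettl3 was not fixed. Virma was higher with all exons and with the longest transcripts, and near Mettl3 with principal transcripts (levels per kb of 51.4 and 52.2). It was lower with the median coding transcript (34.1 and 108), a length that for Mettl3 is shorter than its full coding part.

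Of the RNA-binding pair, Rbm15 had the higher value throughout. Rbm15 (ENSMUSG00000048109.10, chromosome 3, 107325421 to 107333673) had a level per kb of 51.1, above 72.1% of genes. Rbm15b (ENSMUSG00000074102.4, chromosome 9, 106880918 to 106887428) had a level per kb of 36.6, above 64.8% of genes. The ratio of Rbm15 to Rbm15b was 1.40 per kb, 1.59 in mean count, and between 1.32 and 2.39 with the other lengths. Rbm15 and Zc3h13, neighbours in the order per kb, differed by a ratio of 1.05 and changed places with each of the other lengths.

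Cbll1 (ENSMUSG00000020659.16, chromosome 12, 31484829 to 31499616) had the lowest level per kb of the subunits, 18.6, above 49.3% of genes. It was the lowest with each length and on mean counts. Wtap exceeded it 9.80-fold per kb, and by 18.9-fold to 45.4-fold with the other lengths. With no values per library, it is not known which neighbours in these orders differ by more than the spread between libraries.

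**Figure D1:**
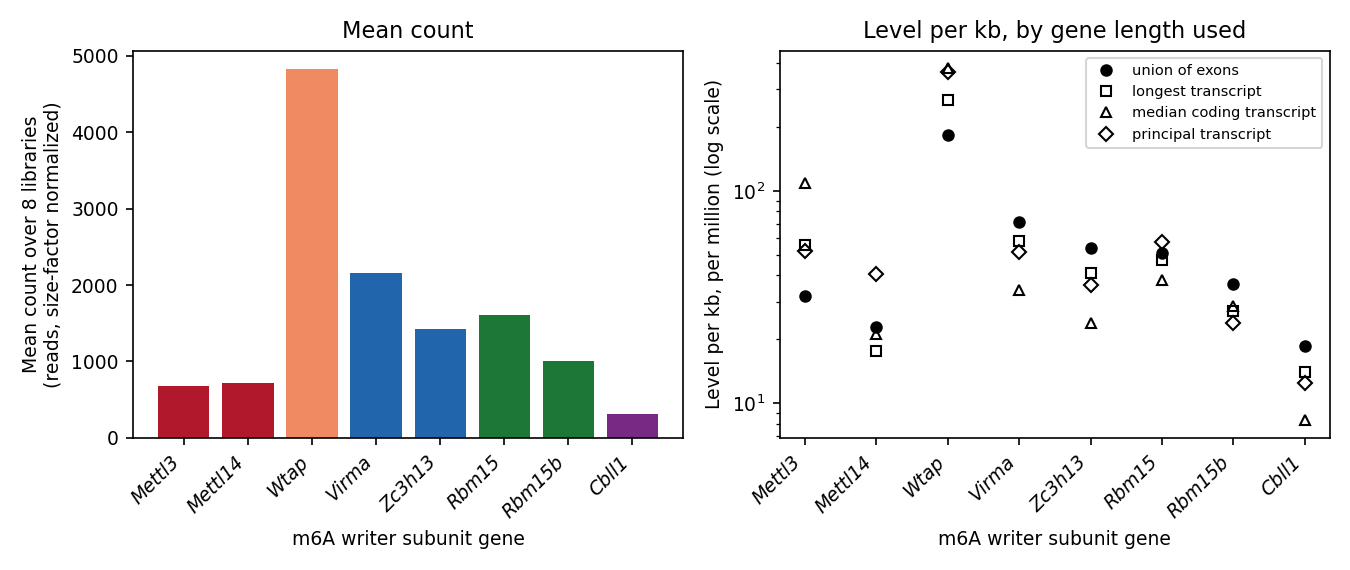
Left, bars give the authors' mean count over 8 libraries for each subunit gene, in size-factor-normalized reads, coloured by role (red, catalytic pair; orange, Wtap; blue, scaffolds; green, RNA-binding; purple, Cbll1). Right, symbols give the level per kb (all genes add up to 1000000) on a log axis with 4 choices of gene length. Wtap is highest and Cbll1 lowest with each choice, while Mettl3 moves from 31.8 to 108. The 108 uses a length of 648 bases, shorter than the full coding part of Mettl3.

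**Figure D2:**
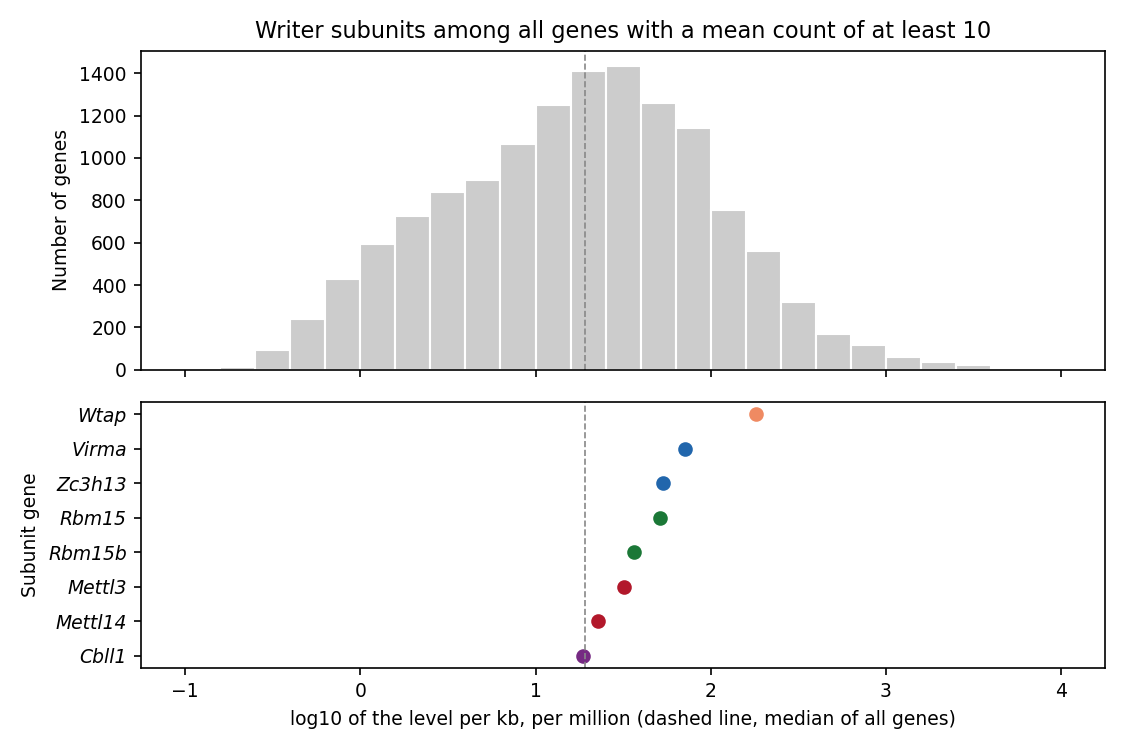
The upper panel counts the 13447 genes by log10 of the level per kb (all genes add up to 1000000), and the lower panel places each subunit on the same axis, coloured by role. The dashed line marks the median gene at 19.2, with 7 of 8 subunits to its right and Cbll1, at 18.6, just to its left.

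The subunit genes differ in architecture, described here from the annotation alone. The principal transcripts of Virma and Zc3h13 are long and cut into many exons, with 24 exons in 6506 bases for Virma and 19 exons in 6151 bases for Zc3h13. Per kb these are 3.69 and 3.09 exons, near the median of 3.42 over 13022 coding genes. Rbm15b is a single exon of 6511 bases, and Rbm15 has 2 exons in 4343 bases, of which 1 holds 79.6%. Cbll1 has 6 exons, and 1 exon of 3379 bases makes up 86.6% of its transcript. These genes, Rbm15, Rbm15b and Cbll1, lie at the 85.8th, 97.9th and 85.1st percentiles for the length of the longest exon among the same genes, whose median is 1392 bases. Mettl3 is at the other end: its longest exon, of 405 bases, is at the 10.8th percentile, and it has 5.43 exons per kb.

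METTL3 prefers an adenosine within a short consensus, of which GGACT is the best known form. That motif was searched on the sense strand of each principal transcript. It was found in 8 of 8 subunit transcripts and in 92.2% of the 13022 transcripts. Wtap had 5 matches in 2060 bases, 2.43 per kb, at the 94.4th percentile. Mettl3 itself had 4 matches in 2025 bases, 1.98 per kb, at the 87.9th percentile. Virma and Zc3h13 had 7 each, all within the coding part, with 1.08 and 1.14 per kb. Mettl14 had 3 matches (1.09 per kb), Cbll1 5 (1.28 per kb), Rbm15b 6 (0.922 per kb) and Rbm15 2 (0.461 per kb). The median transcript had 1.05 per kb, and 6 of the 8 subunits were above it. Of these, Virma, Mettl14 and Zc3h13 lay close to it, at the 51.3rd, 52.5th and 55.4th percentiles, and Cbll1 was at the 63.3rd. Rbm15b and Rbm15 were below it, at the 41.9th and 15.7th percentiles. A match describes the letters and does not show that the base is methylated.

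**Figure D3:**
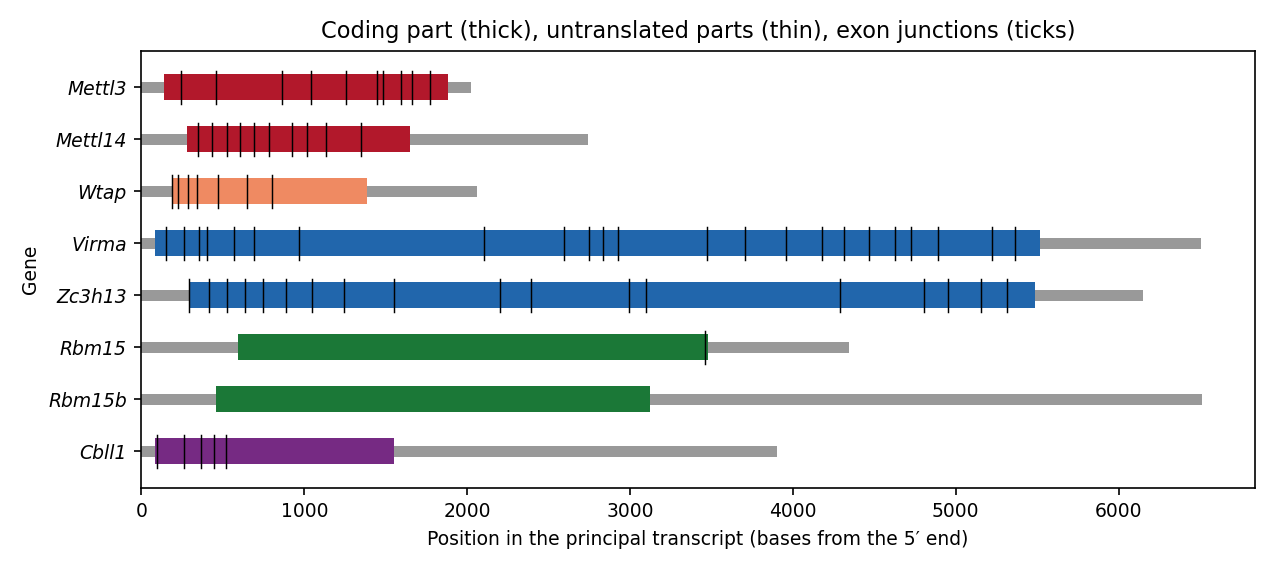
Each row draws the principal transcript of a subunit gene to scale in bases from the 5′ end, with the coding part as a thick bar coloured by role, untranslated parts as a thin grey bar and exon junctions as ticks. Virma and Zc3h13 are divided by many junctions, whereas Rbm15b has none and Cbll1 ends in 1 exon of 3379 bases.

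Reads could be shared with overlapping genes for 3 of the 8 subunits. Mettl3 shares 933 of its exon bases (18.4%) with Tox4 on the opposite strand, a gene with a mean count of 1649. Cbll1 shares 704 bases (17.6%) with the antisense gene Gm29542, which has no row. Rbm15b shares 75 bases (1.15%) with Dcaf1 on the opposite strand and 14 bases with Manf on the same strand. It is uncertain whether the counting used strand, so the values of Mettl3 and Cbll1 are uncertain. The share of bases does not limit the share of reads, and how many Mettl3 reads could come from Tox4 was not tested.

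Other genes of the pathway, in lists chosen by known role, gave a frame for the writer levels. The 10 reader genes, whose proteins bind m6A or methylated transcripts, had a median level per kb of 153, above the writer median of 43.8, and ran from 21.9 for Igf2bp3 to 636 for Hnrnpc. All 10 were above the median gene, although Ythdc2 fell below it with the median coding transcript (13.2 against 17.3). Only Wtap among the writers had a level per kb above 153. The writer median was also the lower of both with the longest transcripts (44.1 against 124) and with the median coding transcript (31.5 against 109). The demethylase genes, whose products remove the mark, had levels per kb of 47.7 for Alkbh5 and 14.4 for Fto, on either side of the median gene. With the longest transcripts Fto rose to 29.6, above the median gene, and with the median coding transcript both genes were above it and in reverse order (22.3 for Fto and 21.7 for Alkbh5). A list of 6 further genes holds other RNA methyltransferases, which act on ribosomal and small nuclear RNA or at the cap, and Trmt112, an activator of several methyltransferases. These genes had a median of 22.3 and ran from 5.56 for Zcchc4 to 107 for Trmt112. Of these, Trmt112, Mettl16 (46.2) and Mettl5 (28.6) lay within the range of the writer subunits, from 18.6 to 182.

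**Figure D4:**
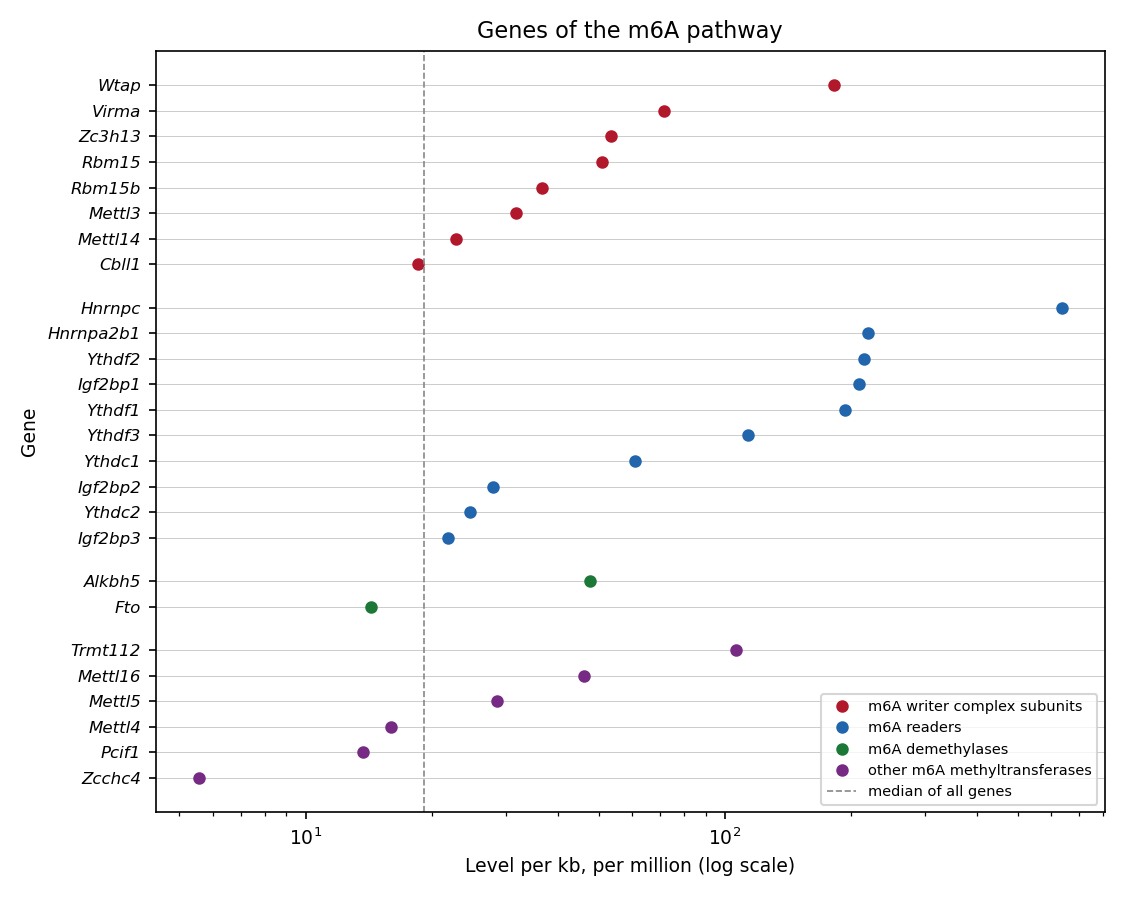
Each point is the level per kb (all genes add up to 1000000) of a gene on a log axis. The groups are 8 writer subunits, 10 readers, 2 demethylases and 6 genes labelled other m6A methyltransferases, of which Trmt112 is an activator. The dashed line is the median of all genes at 19.2; the readers, with a median of 153, lie to the right of it, from Igf2bp3 at 21.9 to Hnrnpc at 636.

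The mean counts of genes added up to 14573411 reads. The labelled cell type was checked with 10 embryonic stem cell markers, all listed and all above the median gene, with levels per kb from 109 for Klf4 to 3808 for Dppa5a and 1252 for Pou5f1. The cells grew on fibroblast feeders. Of 14 feeder markers, 10 had a mean count of at least 10 and 5 lay above the median gene. The summed level per kb of the 14 was 883, against 8793 for the stem cell markers, and their median was 3.87, against 510. The 5 above the median gene, which made up most of that sum, were Lgals1 (254), S100a6 (218), Sparc (190), Vim (103) and Fn1 (99.8). The collagen genes ran from 0.201 for Col3a1 and 0.713 for Col1a1 to 6.28 for Col5a1, Thy1 was at 9.13, and Postn was lowest at 0.0208. No marker was at 0. The part of feeder RNA in the subunit levels was not tested. Fewer cells of a type and less RNA per cell cannot be told apart in such bulk RNA.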

How the data were processed

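Total RNA of mES cells was sequenced after depletion of rRNA. The authors mapped reads to N-masked mm10 with STAR after removal of rRNA reads by bowtie2, kept unique alignments, removed duplicates with Picard and counted genes and transposable elements by TEtranscripts with default parameters. The labels' extraction text describes chromatin RNA, whereas the molecule label and the methods name total RNA. The default counting ignores strand, but the name of the table holds the word reverse, so the strand setting is uncertain. The deposited signal is the mean over libraries of counts divided by size factors, one value per feature (17597 genes and 1097 transposable element subfamilies). The other 5 columns hold the authors' own comparison of dTAG-13 with untreated cells (fold change, its error, a statistic, p and adjusted p) and were not used.

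Gene names were matched to GENCODE M21 (GRCm38). Of the genes, 16647 matched by symbol and 706 by an older symbol, 174 did not match and 70 with more than 1 match were left out, so 17353 (98.6%) had a length. Levels per kb used the union of exons in GENCODE M21, which may differ from the exons that the authors counted. The principal transcript is the longest coding transcript with the principal tag of APPRIS. Named genes were all subunits, and the highest and lowest of each pathway list. Further pathway and marker genes were named after their values were seen. Members and lists were chosen with earlier results of these data known. Calculations used Python 3.11.15, and the level calculation was tested on simulated data. Depth per library is unknown, and no interval is given.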

Additional observations from a re-analysis of the deposited data

How the results depend on the processing

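Values without replicates were called moved when they left the counting interval of the mean count. The median level per kb of the subunits was 43.8 with all exons, 44.1 with the longest transcripts, 45.9 with principal transcripts (added after the data were seen) and 31.5 with the median coding transcript. Their median percentile, 68.5, was 68.8 with the longest transcripts and 68.1 among protein-coding genes, but 75.6 without a filter on mean count, 56.9 at a minimum mean count of 100, 77.0 on mean counts not divided by length, 62.6 with the median coding transcript and 69.8 with principal transcripts. The filter changes which genes form the background, from 17353 genes without it to 9827 at a minimum of 100. By that rule the median level stayed with the longest and principal transcripts and moved with the median coding transcript. The levels of single genes were less stable: 0 of the 8 subunits stayed within their interval with the longest or principal transcripts. With the median coding transcript only Mettl14 stayed. Mettl3 then had a level per kb of 108, as its length falls from 5076 to 648 bases. Those 648 bases are fewer than the 1740 coding bases of its principal transcript, so they cannot hold the full reading frame. With the same setting Cbll1 had 8.31, with a length of 3900 bases in place of 4007, because all levels are rescaled to the same sum. No replicate could be left out, since each value pools all libraries. No paired analysis was possible because the column carries no replicate numbers and no test was run.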
